A study of Mus musculus with 4 samples.

Results

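Heat shock proteins and chaperonins were examined in bone marrow leukaemia stem cells, which are able to propagate a leukaemia, from wild-type mice (WT, 2 libraries) and from mice with a knockout of the zinc-finger gene Rreb1 (KO, 2 libraries). Members were chosen by name: symbols that begin with Hspa, Hspb, Hsph, Hsp90 or Dnaj, or with Cct and a digit, together with Hsf1, Hsf2, Tcp1, Bag3, Stip1 and Ahsa1, and without Hspa9 and Dnajc19. This gave 71 genes of the 16442 in the table. All mice were C57BL/6 and leukaemic, and the labels do not give how leukaemia was induced, the age of the mice, which part of Rreb1 was removed and whether mice were pooled, so p-values measure only the spread between these libraries, which may be technical. The genotype label of KO replicate 2 names Rreb2, and the extraction text speaks of TAMs although every title reads LSC. Groups follow the titles.

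Chaperones bind proteins that are not yet folded or have lost their fold. HSP70 proteins do so in cycles of ATP use that J-domain proteins start, nucleotide exchange factors end and HSP110 proteins assist, and they hand some clients on to HSP90, which finishes the folding of many kinases and receptors. The chaperonin TRiC is a closed barrel of related subunits that folds actin and tubulin, while small heat shock proteins hold unfolded proteins without using ATP. The transcription factor HSF1 raises many of these genes when proteins misfold in the cytosol, and the unfolded protein response raises those of the endoplasmic reticulum (ER), so the family is read as a gauge of folding load in cells that, like granulocyte precursors, make much secretory protein.

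Levels are given in FPKM, which divides a gene's fragments by its exonic length and by library depth, and differences as log2 change (KO minus WT) on the log2(FPKM + 1) scale, which understates changes of low genes. Depth ran from 16590840 to 18451253 assigned reads per library, and 3 reads on 2 kb of exon correspond to 0.0813 to 0.0904 FPKM, counting error only. Rreb1 itself stood at 5.24 and 6.57 FPKM in WT and 6.10 and 6.93 in KO (log2 change 0.13, limma adjusted p = 0.616), so its level does not check the genotype labels, and KO and WT below stand for those labels. Of 8 leukaemia stem cell and progenitor markers 0 were called by limma, while limma-voom called Kit higher and Mpo, Cd34 and Flt3 lower. Means in WT and KO were 3.95 and 7.26 FPKM for Kit, 354 and 179 for Mpo, 69.9 and 50.2 for Cd34, 27.2 and 18.6 for Flt3, 29.6 and 33.8 for Hoxa9, and 11.1 and 11.7 for Meis1. Elane, the highest of these markers, overlapped (means 6162 and 6735), and Myc lay lower in both KO libraries (170.4 and 144). The part of these markers in the results below was not tested.

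Among the 71 members, 7 averaged over 100 FPKM, 33 lay between 10 and 100, 19 between 1 and 10, and 12 fell below the minimum mean of 1 FPKM and were not tested. Together they summed to 3306 and 3439 FPKM in WT and 3044 and 2875 in KO, which was 0.918% and 0.969% of the table's summed FPKM in WT against 0.847% and 0.779% in KO. The KO shares were both under the WT shares. The 6 highest genes, Hspa5, Hsp90ab1, Hspa8, Cct5, Hsp90b1 and Cct8, made up 48.9% to 52.1% of the family sum.

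No member passed the test between genotypes. Of 59 tested members 0 were called higher and 0 lower (limma, adjusted p below 0.05), where 0.603% of the 11768 genes tested were called higher and 0.408% lower. At an unadjusted p below 0.05, 4 members were higher and 12 lower, against 11.4% and 9.35% of all genes. Limma-voom on recovered whole reads called 2 of 57 members higher (4.41% of all genes) and 3 lower (2.95%). These were Hspa2 and Dnajc5, and Hspa5, Cct5 and Dnajc18.

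The estimates leaned to lower levels in KO. They were below 0 for 41 of the 59 tested members (46% of all genes) and above 0 for 18 (54%), with a median of −0.12 for the members and 0.03 for all genes tested. The groups did not overlap, with KO below WT, for 28 members (47.5%, against 24.9% of all genes) and with KO above WT for 13 (22.0%, against 30.5%). Genes of higher level leaned lower in the whole table too: among genes of at least 10 FPKM the groups did not overlap, with KO below WT, for 23 of 40 members (57.5%) and for 1701 of 4898 genes (34.7%). Without KO replicate 2, 34 members had an estimate below 0. The marker genes of neutrophils, 8 of 10 called higher, summed to 1251 and 1285 FPKM in WT against 2922 and 3512 in KO. Of the others, Ltf overlapped and Cxcr2 lay lower in both KO libraries (2.08 and 2.27 in WT, 1.99 and 1.91 in KO). Those of red cells, 5 of 6 called higher, summed to 92.6 and 83.5 against 421 and 514, while Klf1 lay lower in both KO libraries (means 1.58 and 0.516). Macrophage genes, 4 of 7 called lower, summed to 284 and 327 in WT and 249 and 244 in KO. Most of that sum was Apoe, which overlapped (202 and 225 in WT, 212 and 207 in KO), as did Vcam1. None of these markers was at 0 in all libraries. Whether cell composition takes part in the lower chaperone levels was not tested, and in bulk RNA fewer cells of a type cannot be told apart from less RNA per cell. No limma estimate of a tested member exceeded 0.58 in size on the log2(FPKM + 1) scale.

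**Figure D1:**
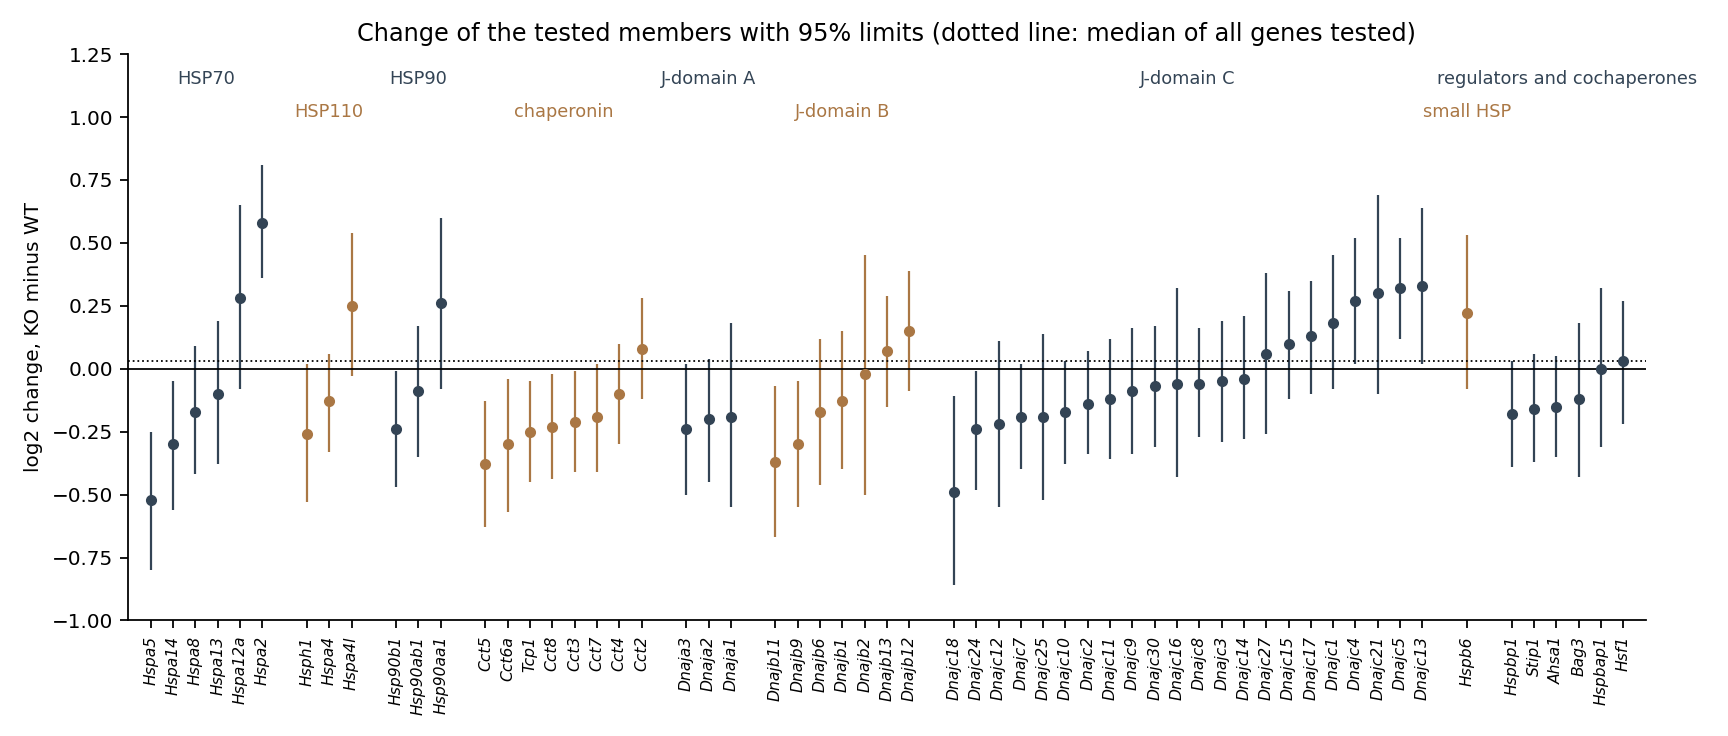
Log2 change (KO minus WT, y axis) of the 59 tested members, grouped by class along the x axis. Points are limma estimates with 95% limits from 2 libraries per genotype, the solid line is 0 and the dotted line is the median of all genes tested (0.03). Most points lie below 0, with Hspa5 (−0.52) lowest and Hspa2 (0.58) highest.

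The clearest contrast lay within the HSP70 family, between the ER chaperone Hspa5 and the cytosolic gene Hspa2. Hspa5 encodes BiP, the HSP70 of the ER lumen and the sensor partner of the unfolded protein response. It was the highest member of all in WT, at 438 and 428 FPKM (34177 and 30039 reads), and stood at 324 and 280.3 FPKM in KO (25237 and 20198 reads). Both KO libraries lay well below both WT libraries, a change of the mean of −30.2%. Its log2 change was −0.52 (SE 0.112, 95% limits −0.80 to −0.25, limma adjusted p = 0.104, limma-voom adjusted p = 0.00703). The gene lies on chromosome 2, 34771970 to 34777547, plus strand, GRCm38 (GENCODE M21).

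The other ER members were divided. Counting by known location, a choice made after values were seen, 14 members work in the ER or its membrane: Hspa5, Hsp90b1, Hspa13, Dnajb9, Dnajb11, Dnajb12, Dnajb14, Dnajc1, Dnajc3, Dnajc10, Dnajc14, Dnajc16, Dnajc18 and Dnajc25. Of the 13 tested 0 were called, 7 had both KO libraries below both WT libraries (24.9% of all genes), 2 had them above (30.5% of all genes) and 4 overlapped, with a median log2 change of −0.17. Most of these genes averaged at least 10 FPKM, a level at which 34.7% of all genes were lower and 24.3% higher. Their summed level was 899.7 and 922 FPKM in WT and 751 and 676 in KO. Their share of the family sum was 27.2% and 26.8% in WT and 24.7% and 23.5% in KO. Hspa5 was the largest part of this ER sum, at 438 and 428 FPKM in WT and 324 and 280.3 in KO. The sum and the share therefore rest largely on that gene. Leaving these and the chaperonin ring aside, the other 38 tested members had a median of −0.09, with 14 lower and 11 higher in both KO libraries.

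Hsp90b1 encodes GRP94, the HSP90 of the ER. It was at 204 and 223 FPKM in WT and 184 and 177 in KO (log2 change −0.24, SE 0.095, limma adjusted p = 0.232). Some 15.7% of its exonic bases are shared with other annotated genes. Dnajb11, the J-domain partner that feeds clients to BiP, was at 94.3 and 100.2 FPKM in WT and 83.9 and 67.0 in KO (log2 change −0.37, SE 0.123, limma adjusted p = 0.187). KO replicate 2 was the lowest library, and without it the change was −0.21. Dnajb9, a J-domain protein that represses the stress sensor IRE1 and helps degrade misfolded proteins, was at 11.7 and 12.0 FPKM in WT and 10.2 and 8.75 in KO (log2 change −0.30, limma adjusted p = 0.195). In these genes, too, no KO library reached a WT library.

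The remaining ER genes were mixed. Dnajc10, a J-domain protein that also reduces disulphide bonds, was at 66.2 and 71.5 FPKM in WT and 61.0 and 60.6 in KO. Dnajc3, which binds unfolded clients and inhibits the kinase PERK, was at 42.0 and 41.9 in WT and on either side of them in KO, at 43.7 and 37.3. Dnajc1, a membrane J-domain protein at the translocon, was higher in both KO libraries, at 5.54 and 6.06 in WT and 6.35 and 7.12 in KO. None of the 3 passed the test (limma adjusted p = 0.285, 0.781 and 0.374). Of the membrane-bound J-domain genes, Dnajb12 was at 11 and 9.77 FPKM in WT and 11.4 and 11.8 in KO (log2 change 0.15, limma adjusted p = 0.412), higher in both KO libraries. Dnajc14 overlapped at 14.1 and 15.4 in WT and 15.3 and 13.5 in KO. Dnajb14, at 0.668 and 0.659 in WT and 0.690 and 0.805 in KO, was below the minimum level.

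**Figure D2:**
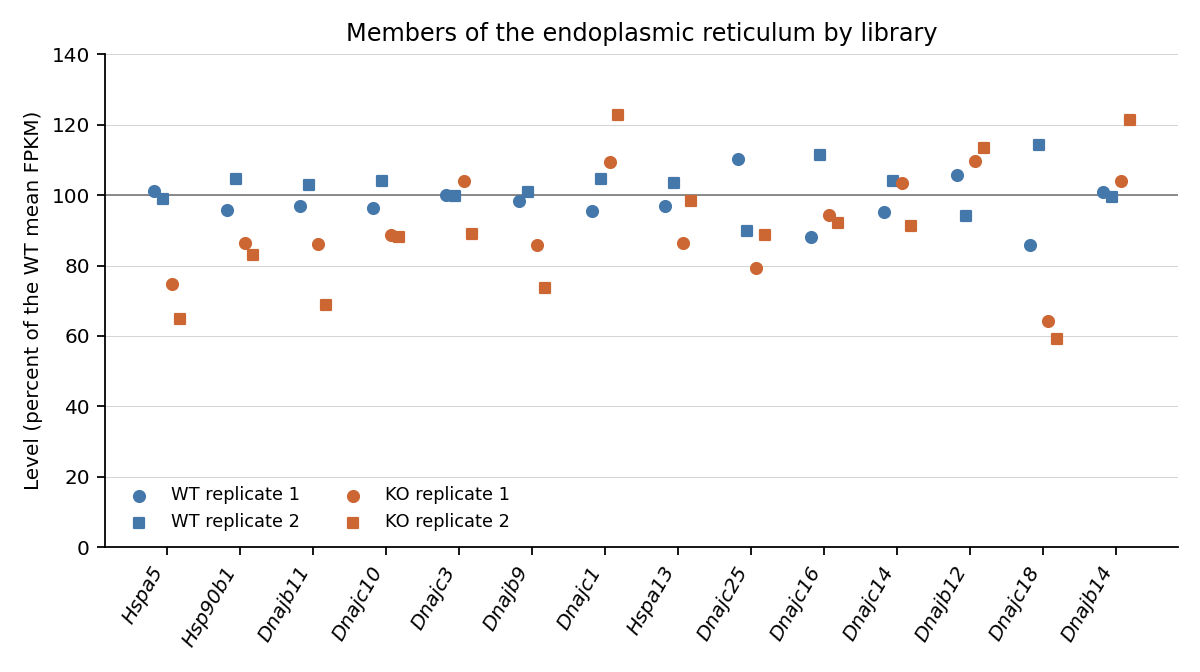
Level of each of the 14 ER members in each library as a percent of its own WT mean in FPKM (y axis), genes on the x axis. Circles are replicate 1 and squares replicate 2 of WT (blue) and KO (orange). Dnajc18 and Hspa5 have the largest changes of the mean (−38.3% and −30.2%), and Dnajc1, Dnajb12 and Dnajb14 have both KO libraries above both WT libraries.

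Because some ER chaperone genes are known targets of the unfolded protein response, promoters were searched for its ER stress response element. The 250 bases before the RefSeq start (GRCm38.p6) are shown for the members that hold the element in its exact form. The element searched was CCAAT followed by CCACG with 9 bases of any kind between them, on either strand, so it contains a CCAAT box. It is in capitals in each line, written 5′ to 3′ on the strand of the gene: Hspa5 at chr2:34771840-34772089 (plus), Hsp90b1 at chr10:86705445-86705694 (minus) and Dnajc3 at chr14:118937682-118937931 (plus).
Hspa5: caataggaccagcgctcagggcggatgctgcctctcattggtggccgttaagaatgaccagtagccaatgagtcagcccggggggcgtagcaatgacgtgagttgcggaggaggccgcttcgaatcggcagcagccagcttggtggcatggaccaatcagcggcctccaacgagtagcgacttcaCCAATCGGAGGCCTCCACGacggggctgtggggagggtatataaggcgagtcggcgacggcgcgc
Hsp90b1: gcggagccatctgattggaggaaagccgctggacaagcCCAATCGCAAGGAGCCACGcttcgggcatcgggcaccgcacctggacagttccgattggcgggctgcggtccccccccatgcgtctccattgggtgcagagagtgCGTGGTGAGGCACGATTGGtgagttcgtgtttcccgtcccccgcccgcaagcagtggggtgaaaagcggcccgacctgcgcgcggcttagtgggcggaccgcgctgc
Dnajc3: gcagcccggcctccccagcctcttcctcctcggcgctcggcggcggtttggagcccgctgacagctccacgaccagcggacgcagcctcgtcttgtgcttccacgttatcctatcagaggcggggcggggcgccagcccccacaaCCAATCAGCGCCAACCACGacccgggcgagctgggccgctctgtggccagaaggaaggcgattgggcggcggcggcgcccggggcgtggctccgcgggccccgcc

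The single match of Hspa5 ends 47 bases before the start, those of Hsp90b1 end 194 and 89 bases before it (the second on the opposite strand) and that of Dnajc3 ends 87 bases before it. RefSeq windows (250 bases before to 50 after the start) were found for 58 of the 71 members, and these 3 were the members with a match. Over all genes with a window, 37 of 27025 (0.137%) held one. The second ER element, ATTGG and CCACG with 1 base between them, on either strand, was found in 12 genes (0.0444%), among the members only in Dnajb11, as ATTGGCCCACG from 7 to 17 bases past its start. The genes with a match did not share one pattern of levels: Hspa5, Hsp90b1 and Dnajb11 were lower in both KO libraries and Dnajc3 overlapped.

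In the cytosol the HSP70 genes differed in direction. Hspa8 encodes HSC70, the HSP70 made without stress, and gave 321 and 360.4 FPKM in WT and 303 and 304 in KO (log2 change −0.17, 95% limits −0.42 to 0.09, limma adjusted p = 0.398). The KO libraries lay just under the lower WT library. The inducible Hspa1a was close to the detection floor, with 18 then 37 reads in WT libraries 1 and 2 and 42 then 6 in the KO libraries (0.329, 0.752, 0.768 and 0.119 FPKM). Its lowest and highest values were both KO libraries. Hspa1a is nearly identical to its neighbour Hspa1b, which was not analysed here, so its reads are uncertain, and 19.0% of its exonic bases overlap another gene.

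Hspa2, an HSP70 best known from the testis, was the member with the smallest p. It was at 17.2 and 19.5 FPKM in WT (841 then 856 reads) and 28.4 and 27.6 in KO (1381 then 1245 reads), so both KO libraries were above both WT libraries. Its mean was 52.3% higher in KO, with a log2 change of 0.58 (SE 0.092, 95% limits 0.36 to 0.81, limma adjusted p = 0.0567, limma-voom adjusted p = 0.00579). The gene lies on chromosome 12, 76404176 to 76406938, plus strand. Within each library Hspa2 was 0.0536 and 0.0541 of the Hspa8 level in WT and 0.0936 and 0.0911 in KO, and BiP was 1.36 and 1.19 times the Hspa8 level in WT and 1.07 and 0.924 times in KO.

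The remaining HSP70 genes lay far below Hspa8 and were divided. Hspa14, the HSP70 of the ribosome-associated complex, was at 33.0 and 34.7 FPKM in WT and 29.6 and 25.0 in KO (log2 change −0.30, limma adjusted p = 0.193). Its complex partner Dnajc2 was at a mean of 23.4 and 21.1 FPKM and was also lower in both KO libraries. The atypical Hspa12a was at 1.17 and 1.24 FPKM in WT and 1.80 and 1.58 in KO, and the microsomal Hspa13 overlapped (4.30 and 4.59 against 3.83 and 4.37).

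The HSP110 genes, which act as exchange factors for HSP70, did not move as one. Hspa4 was at 43.2 and 45.0 FPKM in WT and 40.9 and 39.2 in KO, and Hsph1, the heat-inducible member, at 6.41 and 7.60 in WT and 5.77 and 5.61 in KO. Both were lower in both KO libraries. Hspa4l lay the other way, at 3.80 and 4.33 in WT and 5.24 and 4.81 in KO. Limma adjusted p were 0.373, 0.268 and 0.279.

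**Figure D3:**
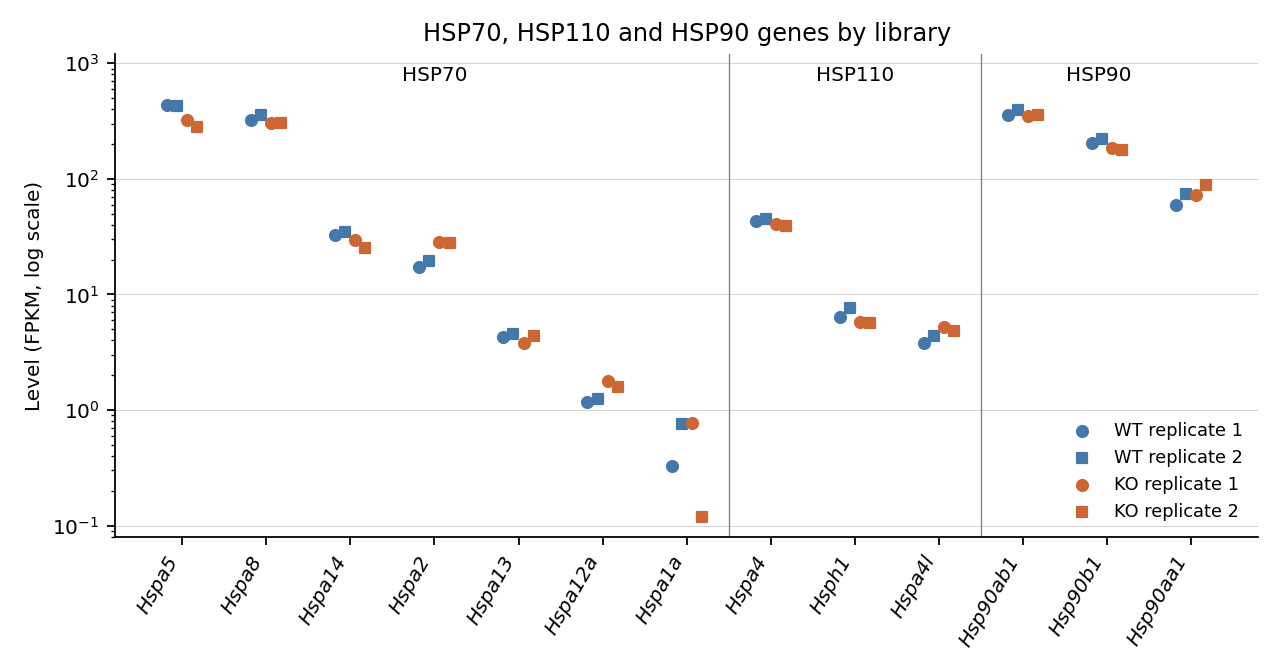
Level in FPKM (log y axis) of the HSP70, HSP110 and HSP90 genes in each of the 4 libraries, genes on the x axis. Circles are replicate 1 and squares replicate 2 of WT (blue) and KO (orange). Hspa5 is below and Hspa2 above WT in both KO libraries, and Hspa1a is spread over the widest range, 0.119 to 0.768 FPKM.

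The cytosolic HSP90 genes overlapped between genotypes. Hsp90ab1, the constitutive form, was at 355 and 396 FPKM in WT and 349 and 356 in KO (log2 change −0.09, 95% limits −0.35 to 0.17, limma adjusted p = 0.660). Hsp90aa1, the inducible form, was at 59.8 and 73.9 FPKM in WT and 72.3 and 88.0 in KO (log2 change 0.26, 95% limits −0.08 to 0.60, limma adjusted p = 0.340). Replicate 2 was the higher library in each genotype for both genes. The ratio of Hsp90aa1 to Hsp90ab1, taken within a library, was 0.168 and 0.187 in WT and 0.207 and 0.247 in KO, so the ratio did not overlap although each gene did. For such a ratio the smallest two-sided p of an exact permutation test is 0.333 in this design, so it was not tested.

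The chaperonin ring was lower in KO at nearly every subunit. Its 8 subunit genes, Tcp1, Cct2, Cct3, Cct4, Cct5, Cct6a, Cct7 and Cct8, summed to 813 and 811 FPKM in WT and 712 and 667 in KO, a change of the mean of −15.1%. Both KO libraries were below both WT libraries for 7 of the 8 genes (34.7% of all genes of at least 10 FPKM), and 5 had an unadjusted p below 0.05 (9.35% of all genes), but 0 were called by limma. The median log2 change was −0.22, and it ran from −0.19 to −0.24 with each library left out in turn. Limma-voom called 1 subunit, Cct5.

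Cct5, the epsilon subunit (chromosome 15, 31590800 to 31601804, minus strand), was the highest and had the largest difference. It was at 258 and 239 FPKM in WT (13149 and 10967 reads) and 202 and 179.6 in KO (10282 and 8463 reads), with a log2 change of −0.38 (SE 0.104, 95% limits −0.63 to −0.13, limma adjusted p = 0.144, limma-voom adjusted p = 0.0323). Next came Cct6a at −0.30, Tcp1, the alpha subunit, at −0.25, Cct8 at −0.23, Cct3 at −0.21 and Cct7 at −0.19, with limma adjusted p from 0.188 to 0.269. Cct4 was at 59.8 and 62.6 FPKM in WT and 58.9 and 55.4 in KO, separated by less than 1 FPKM. The exception was Cct2, the beta subunit, at 75.1 and 79.2 FPKM in WT and 79.1 and 84.0 in KO (log2 change 0.08, 95% limits −0.12 to 0.28).

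Although the protein ring holds its subunits in equal number, their mRNA levels per length were unequal in every library. The highest subunit exceeded the lowest by 5.14 and 5.09 times in WT and 4.79 and 4.33 times in KO. These ratios depend on the length used, which takes in all annotated exonic bases, 2766 for Cct5 and 6778 for Cct7. In WT replicate 1 these 2 genes had 13149 and 11191 reads, at 258 and 89.5 FPKM. How far the lengths make the subunits unequal was not tested. Cct5 took 31.7% and 29.5% of the ring sum in WT and 28.4% and 26.9% in KO, while Cct2 took 9.24% and 9.76% in WT and 11.1% and 12.6% in KO. The shares of Tcp1, Cct3, Cct6a, Cct7 and Cct8 overlapped between genotypes. Cct6b, a relative of Cct6a known from the testis, had 19 to 27 reads per library and was below the minimum level. Exonic bases shared with other genes were 16.9% for Tcp1 and 15.3% for Cct6a, and processed copies of chaperonin genes may take part of their reads.

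**Figure D4:**
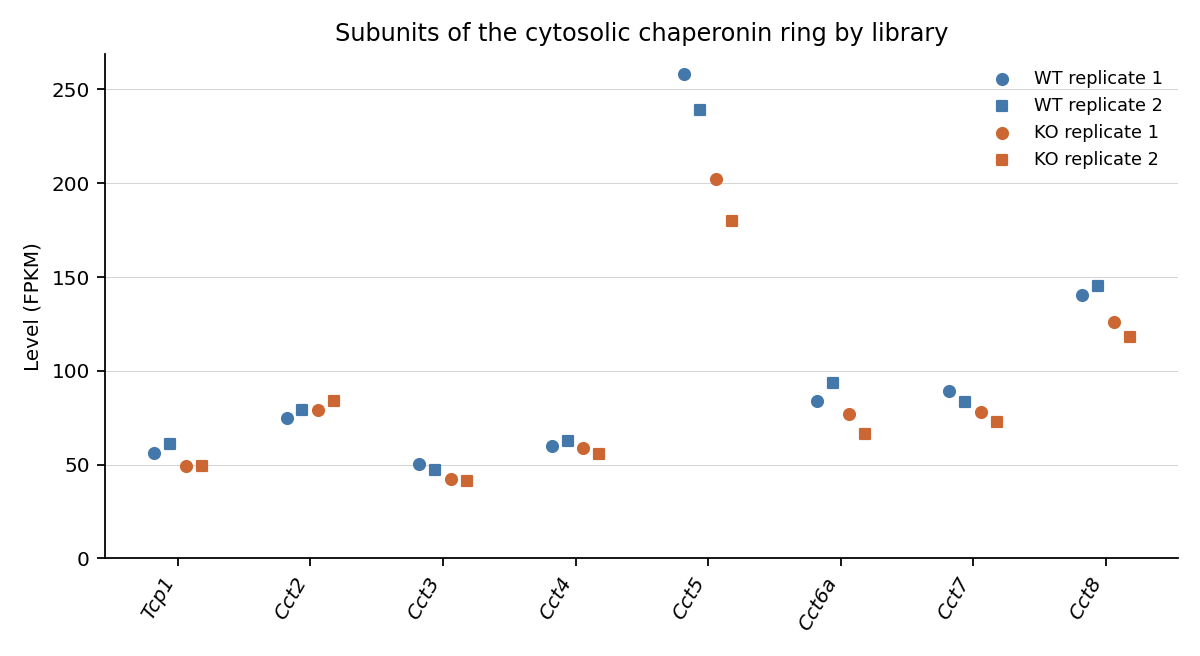
Level in FPKM (y axis, from 0) of the 8 chaperonin ring subunits in each library, genes on the x axis. Circles are replicate 1 and squares replicate 2 of WT (blue) and KO (orange). Cct5 is highest in all 4 libraries and differs most, and Cct2 is the subunit whose genotypes overlap.

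J-domain genes, 39 in the table, leaned lower but went both ways. Estimates were below 0 for 22 of the 32 tested (46% of all genes) and above 0 for 10 (54% of all genes). Of the 32 tested, 12 were lower (24.9% of all genes) and 9 higher (30.5% of all genes) in both KO libraries and 11 overlapped, with a median log2 change of −0.08. Over all genes of at least 10 FPKM the shares were 34.7% lower and 24.3% higher. In subfamily A, the classical partners of HSP70, Dnaja1 overlapped at 22.1 and 27.4 FPKM in WT and 24.3 and 19.0 in KO. Dnaja2 was at 51.7 and 54.1 in WT and 49.5 and 42.3 in KO, and the mitochondrial Dnaja3 at 16.1 and 17.0 in WT and 15.1 and 12.7 in KO. Both were lower in both KO libraries (limma adjusted p = 0.304 and 0.269).

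Of subfamily B, Dnajb1, the heat-inducible HSP40, was at 41.4 and 39.6 FPKM in WT and 40.9 and 33.4 in KO. Only KO replicate 2 stood apart, and the log2 change of −0.13 (limma adjusted p = 0.543) became 0.014 without that library. Dnajb6, which holds back aggregates, overlapped as well, at means of 25.9 and 23.0 FPKM. Dnajb13 and Dnajb2 had log2 changes of 0.07 and −0.02, and Dnajb9, Dnajb11 and Dnajb12 are given with the ER members. Dnajb3, Dnajb4, Dnajb5 and Dnajb7 averaged below 1 FPKM.

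Subfamily C joins proteins with varied tasks. Dnajc5, the cysteine string protein of secretory vesicles, was at 17.9 and 18.7 FPKM in WT and 23.1 and 23.1 in KO, a log2 change of 0.32 (SE 0.081, limma adjusted p = 0.129, limma-voom adjusted p = 0.0466). Dnajc13, a protein of endosomes, was at 3.25 and 3.90 in WT and 4.52 and 4.97 in KO, and Dnajc4 at 18.7 and 19.2 in WT and 21.2 and 25.0 in KO (log2 changes 0.33 and 0.27, limma adjusted p = 0.217 and 0.215). These 3 genes were higher in both KO libraries.

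Dnajc18, an ER membrane protein and the J-domain gene with the largest log2 change in size, was at 2.73 and 3.63 FPKM in WT (276 and 330 reads) and 2.04 and 1.88 in KO (206 and 176 reads). Its log2 change was −0.49 (SE 0.154, limma adjusted p = 0.176, limma-voom adjusted p = 0.0463), and without WT replicate 2 it was −0.33. Dnajc24, needed to make diphthamide on elongation factor 2, was at 18.1 and 20.3 FPKM in WT and 15.6 and 16.5 in KO (log2 change −0.24, limma adjusted p = 0.224). The highest of the subfamily, the splicing-associated Dnajc8, overlapped at 129 and 125 in WT and 127 and 117 in KO, and so did Dnajc9, a histone chaperone, at means of 87.6 and 82.5 FPKM. Of all 22 tested genes of subfamily C, 7 were higher and 8 lower in both KO libraries. Over all genes tested 30.5% were higher and 24.9% lower, and over those of at least 10 FPKM 24.3% and 34.7%. The pseudogene Dnajc19-ps, which the name rule takes in, had 0 to 2 reads per library.

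Small heat shock genes were scarce. Hspb6 was the single tested one, at 4.36 and 5.03 FPKM in WT and 5.24 and 6.08 in KO (log2 change 0.22, limma adjusted p = 0.344). Hspb9 had 5 to 8 reads per library and Hspb11, a protein of intraflagellar transport, 4 to 10. Other small heat shock genes were not analysed here.

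The regulators did not differ beyond their spread. Hsf1 was at 13.1 and 13.1 FPKM in WT and 14.4 and 12.4 in KO, on either side of WT (log2 change 0.03, 95% limits −0.22 to 0.27, limma adjusted p = 0.901; −0.07 without KO replicate 1). Hsf2 averaged 0.917 and 1.07 FPKM. Bag3, an HSF1 target that links HSP70 to autophagy, overlapped at 4.51 and 5.18 in WT and 4.0 and 4.72 in KO.

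The cochaperones that serve HSP90 and HSP70 leaned lower. Stip1, or HOP, the adaptor that passes clients from HSP70 to HSP90, was at 93.6 and 92.7 FPKM in WT and 88.0 and 79.2 in KO (log2 change −0.16, limma adjusted p = 0.362). Ahsa1, which speeds the ATPase of HSP90, was at 52.6 and 52.8 in WT and 49.5 and 45.5 in KO, and the exchange factor Hspbp1 at 50.8 and 46.5 in WT and 43.6 and 41.9 in KO. All 3 were lower in both KO libraries and none was called. Hspbap1 overlapped at means of 2.96 and 2.97 FPKM.

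Heat shock elements were looked for in the same promoter windows as GAA, TTC and GAA in a row with 2 bases between neighbours, on either strand. Only this exact form was counted, so elements that deviate from it were missed. No window was found for 13 members, Hspa8, Hsp90aa1 and Hsp90ab1 among them. The exact form was found in 2 of the 58 members with a window, Dnajb6 (GAATCTTCCGGAA) and Hsph1 (TTCTGGAAAGTTC, past the start), and in 179 of 27025 genes with a window (0.662%). Neither gene passed the test, and the levels of both are given above.

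Genes that work with these chaperones but lie outside the name rule were counted in the same fit, and 0 of them were called. Of 22 genes of ER folding and the unfolded protein response, 12 were lower and 2 higher in both KO libraries, with a median log2 change of −0.22. Here and in the lists that follow, the same count over all genes tested is 24.9% lower and 30.5% higher. Most genes of these lists averaged at least 10 FPKM, and over all genes of that level it is 34.7% lower and 24.3% higher. The disulphide isomerases Pdia4 and Pdia6 led by p, at 119 and 113 against 91.5 and 80.8 FPKM and at 179 and 177 against 140.2 and 121 FPKM (log2 changes −0.42 and −0.44, limma adjusted p = 0.112 and 0.115). Limma-voom called 3 of this list lower, Pdia3, Pdia4 and Pdia6. The lectin chaperones divided, Canx being lower in both KO libraries (means 92.9 and 77.8 FPKM) and Calr overlapping (249 and 273).

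Partners of HSP90 (16 tested) were lower in both KO libraries for 8 genes and higher for 2, median −0.18, led by the cochaperone Ptges3, or p23, at 148 and 150.0 against 120.4 and 108 FPKM (limma adjusted p = 0.118). The immunophilin Fkbp4 followed at 86.7 and 84.1 against 73.9 and 59.0 FPKM. HSP70 partners (10 tested) were lower for 7 and higher for 2, median −0.17. Bag6, which guards membrane proteins in the cytosol, was higher at 7.02 and 6.83 against 8.90 and 11.5 FPKM (log2 change 0.49, limma adjusted p = 0.143), and the exchange factor Bag2 lower at 4.0 and 3.90 against 2.93 and 2.67.

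The prefoldin and phosducin-like genes (8 tested) had a median of 0.08, with 3 higher and 2 lower in both KO libraries. All 8 averaged at least 10 FPKM, a level at which 24.3% of all genes were higher and 34.7% lower. Pfdn2 was at 28.0 and 25.5 against 31.1 and 33.3 FPKM and Pfdn6 at 49.5 and 50.6 against 52.9 and 69.5. The actin and tubulin substrates (10 tested) had a median of −0.23, with 6 lower and 1 higher. Tuba1a was at 58.8 and 68.3 against 47.8 and 44.0 FPKM and Tubb2a at 45.9 and 43.8 against 36.1 and 31.9 (limma adjusted p = 0.110 and 0.118). Limma-voom called these 2 lower. Tubulin genes are close copies whose reads may be shared.

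Mitochondrial chaperones and proteases (10 tested) were lower for 4 and higher for 0, median −0.10. Hspd1, the mitochondrial HSP60, stood at 133 and 140.1 FPKM in WT and 101 and 88.8 in KO (log2 change −0.52, limma adjusted p = 0.0811, limma-voom adjusted p = 0.00712), and Trap1, the HSP90 of mitochondria, at 45.0 and 46.0 against 37.4 and 37.6. Other HSF1 targets (9 tested, Hspd1 and Fkbp4 among them) were lower for 5 and higher for 1, median −0.26. Immediate early genes, which mark stress during cell handling, were lower for 3 and higher for 2 of 13 tested, median −0.10, with the lower share near that of all genes. They summed to 904 and 906 FPKM in WT and 980.1 and 863 in KO. Zfp36 and Btg2 had the smallest p of them (log2 changes −0.22 and −0.38, limma adjusted p = 0.196 and 0.200).

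**Figure D5:**
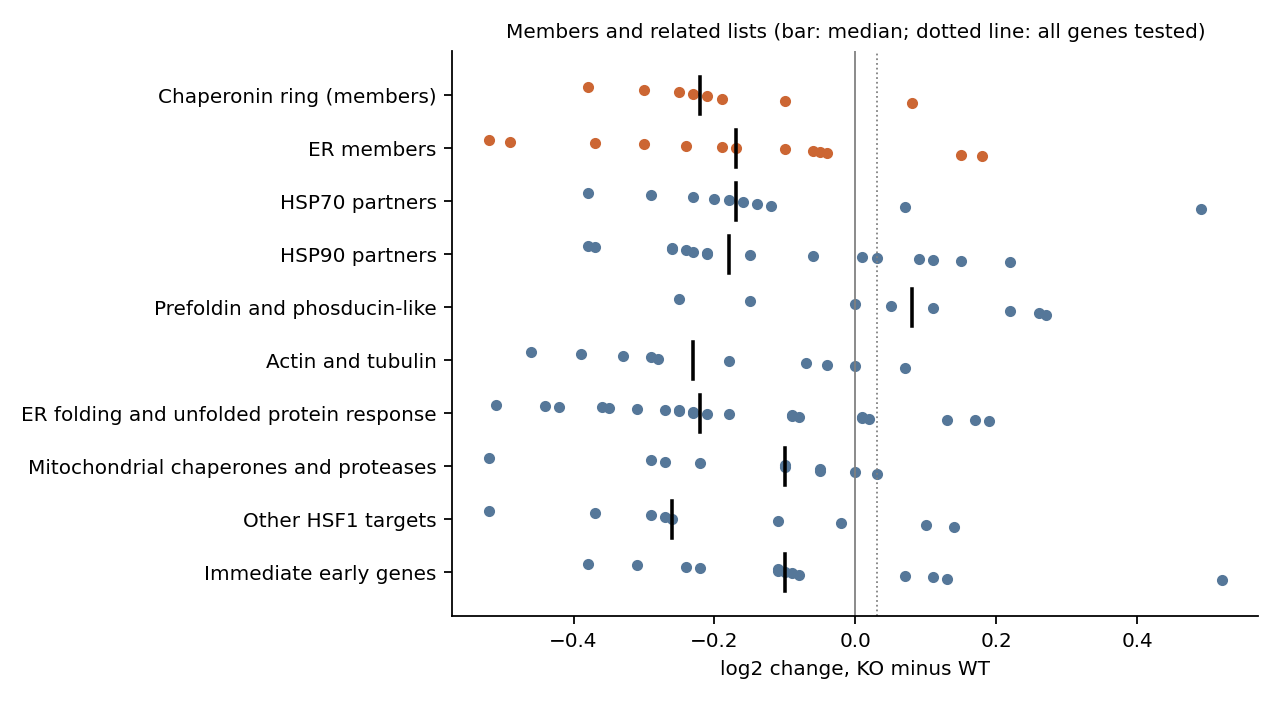
Log2 change (KO minus WT, x axis) of each tested gene in the chaperonin ring and the ER members (orange) and in the 8 related lists (blue), one list per row. Points are limma estimates from 2 libraries per genotype, the black bar is the list's median, and the dotted line is the median of all genes tested (0.03). Medians range from −0.26 for other HSF1 targets to 0.08 for prefoldin and phosducin-like genes.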

How the data were processed

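The deposited file holds 16442 genes in 4 columns and names no unit. Its values were read as the authors' FPKM with 1 added, since the lowest is exactly 1 in each library, and 1 was subtracted. Tools named per the submitters' processing notes are HISAT2 2.1.0, featureCounts, CASAVA and DESeq2, with the build GRCm38 and no roles stated. Of the genes, 16003 (97.3%) matched 1 gene of GENCODE M21 by symbol, all 71 members among them. Multiplied by exonic length, 99.0% to 99.2% of values up to 30 reads were whole multiples (tolerance 0.05) of a library's step, which gave the depths and, for 15801 genes, whole reads. The kit's description does not mention marking of strand, so overlapping genes cannot be told apart.

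Differences were tested with limma 3.58.1 (R 4.3.3, trend, two-sided) on log2(FPKM + 1) for the 11768 genes averaging 1 FPKM or more, adjusted by Benjamini-Hochberg over all of them with a threshold of 0.05 (2 residual and 4.1 prior degrees of freedom). The test was also run on simulated reads with known changes, where calls were required only at the largest change. How often it calls changes of the members' size is not given here. Members, lists and rules were chosen with earlier results of these data known. Members were named if called, if their unadjusted p was below 0.05 (up to 6 per class and direction), if highest or lowest of their class, or if on a short list of core chaperones; related lists by their 2 smallest p. Other names were chosen after values were seen. They were the remaining ER, HSP70, J-domain and cochaperone members and, outside the members, Canx, Calr, Pdia3 and the single marker genes. Of further marker lists, 2 of 4 B cell and 2 of 4 basophil and mast cell genes were called lower, and 0 of 5 T and NK cell, 2 megakaryocyte and 3 stromal and endothelial genes were called either way. The B cell gene Cd79a (means 1.8 and 3.4 FPKM in WT and KO) and the basophil gene Mcpt8 (37.2 and 43.5) lay higher in both KO libraries.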

Additional observations from a re-analysis of the deposited data

How the results depend on the processing

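The call of 0 members higher and 0 lower held with a pseudocount of 0.1, without the filter on level, with FPKM rescaled by the median ratio of the libraries, with the replicate number as a block and with each library left out in turn. It changed with limma-voom on recovered reads, which called 2 members higher and 3 lower, and in the related lists 1 HSP70 partner higher and, lower, 1 HSP90 partner, 2 actin and tubulin genes, 3 ER folding genes, 1 mitochondrial chaperone and 1 other HSF1 target (Hspd1 in both). Rescaling moved the median of all genes from 0.025 to 0.005, and members with an estimate below 0 from 41 to 42. The numbers of the replicates do not say what they mark, and same-numbered libraries did not deviate together (r = 0.009 across 11768 genes, which are not independent). With the replicate block 0 members were called, and the adjusted p of Hspa2 was 0.0866. With each library left out in turn the log2 change ran from −0.269 to 0.014 for Dnajb1, −0.118 to 0.004 for Dnajc8 (both above 0 without KO replicate 2) and −0.074 to 0.126 for Hsf1, and the class median from −0.191 to −0.07 for HSP70, −0.354 to −0.092 for J-domain A and −0.144 to −0.085 for regulators and cochaperones. Those fits compare 1 library with 2, the lone library being assumed to vary like the others. Rescaling divided the levels of WT replicates 1 and 2 by 0.982 and 1.004 and those of KO replicates 1 and 2 by 1.008 and 1.010. Summed levels of the classes moved by the same factors. In WT some of these sums, such as 813 and 812 FPKM for the chaperonin class, lay closer together than such a move. Genes below 1 FPKM, with few reads, were out of reach of the test.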
